A study of Mus musculus with 7 samples.

Results

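The epidermal differentiation complex is a cluster of genes that keratinocytes, the cells of the epidermis, switch on as they leave the basal layer and build the skin barrier. Its members were taken by symbol from an RNA-seq table of mouse skin: every row whose symbol begins with Lce or Sprr, or with S100a and a digit, plus 9 named genes where present. This gave 53 of the 22552 rows. They are 8 genes of the precursor and fused type (Lor, Ivl, Flg2, Hrnr, Rptn, Crnn, Tchhl1 and Crct1), 14 small proline-rich genes (Sprr), 17 late cornified envelope genes (Lce) and 14 S100 genes. Flg, the ninth named gene, was not analysed here. All 53 matched the RefSeq annotation of GRCm38.p6 and lie on chromosome 3 between 90511034 and 93564645, a span of 3.05 Mb.

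Total RNA was sequenced from flow-sorted skin cells of CD1/C3H mice at postnatal day 50, in 7 libraries with 1 library per group. Epidermal cells came from the ear of Wt/Koa mice (Koa ear), the ear of Wt/Wt mice (WT ear) and the dorsal skin of Wt/Wt mice (WT dorsal). Dermal cells came from the same 3 origins and from the tail of Wt/Wt mice. Koa is a dominant allele caused by a chromosomal inversion, and its carriers have hairy ears. The sources used here give neither the markers of the sort nor the number or sex of the mice. With 1 library per group, differences lack a check against replicates and are given with no p-value.

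The cornified envelope is a shell of cross-linked protein that replaces the plasma membrane of the dying keratinocyte. Involucrin (Ivl) and the small proline-rich proteins are laid down early, loricrin (Lor) makes up most of the finished shell, and late cornified envelope proteins are added at the end. Transglutaminases join these proteins through glutamine and lysine residues. Filaggrin-like proteins such as filaggrin-2 (Flg2), hornerin (Hrnr) and repetin (Rptn) fuse a calcium-binding S100 domain to long repeats and bundle keratin filaments. S100 proteins are small calcium sensors, and several of them are also made by fibroblasts and white blood cells.

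The reading frames of GRCm38 genes show how the families differ. Loricrin is 55.3% glycine over 486 residues, and the 14 Sprr proteins have a median of 31.6% proline. The 17 Lce proteins have medians of 24.2% serine and 21.1% cysteine. Among the 12 Lce1 proteins the median pairwise identity was 90.1%. Lce1m stands apart from them in sequence, since its closest member, Lce1i, shares 60.4% of its residues. In all, 18 members, 11 of them Lce1, are at least 90% identical in protein to another member, so fragments could have been split between them and their single levels are uncertain.

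The 4 promoters printed here belong to the members on which the comparison of dorsal with ear skin turns: the major envelope protein Lor, the filaggrin relative Flg2, the late cornified envelope gene Lce1m and the small proline-rich gene Sprr1a. Each is the 250 bases that end at the base before the start site in RefSeq (GRCm38.p6), read 5′ to 3′ on the strand of the gene. Capitals mark matches to TGANTCA, where N is any base, and to TATAAA, the usual letters of the promoter element that binds the TATA-binding protein. AP-1 (Fos and Jun proteins) usually binds the forms of TGANTCA with C or G at N, and the Flg2 match has A there. Lor is on the minus strand at chr3:92083143-92083392, Flg2 on the plus strand at chr3:93197023-93197272, Lce1m on the minus strand at chr3:93019062-93019311 and Sprr1a on the minus strand at chr3:92485882-92486131.
Lor: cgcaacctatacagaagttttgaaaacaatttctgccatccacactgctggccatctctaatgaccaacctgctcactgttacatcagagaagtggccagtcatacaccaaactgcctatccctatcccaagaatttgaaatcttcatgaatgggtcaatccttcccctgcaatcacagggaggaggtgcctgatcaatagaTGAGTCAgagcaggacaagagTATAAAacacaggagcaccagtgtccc
Flg2: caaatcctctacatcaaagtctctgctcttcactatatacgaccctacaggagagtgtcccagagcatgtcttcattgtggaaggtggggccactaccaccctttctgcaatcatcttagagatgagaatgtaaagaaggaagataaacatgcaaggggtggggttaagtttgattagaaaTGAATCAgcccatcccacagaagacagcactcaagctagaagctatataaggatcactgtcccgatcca
Lce1m: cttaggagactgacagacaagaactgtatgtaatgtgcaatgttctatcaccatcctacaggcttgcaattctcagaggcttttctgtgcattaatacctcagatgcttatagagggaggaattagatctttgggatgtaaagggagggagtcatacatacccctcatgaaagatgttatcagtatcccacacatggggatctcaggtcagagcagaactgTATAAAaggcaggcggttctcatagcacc
Sprr1a: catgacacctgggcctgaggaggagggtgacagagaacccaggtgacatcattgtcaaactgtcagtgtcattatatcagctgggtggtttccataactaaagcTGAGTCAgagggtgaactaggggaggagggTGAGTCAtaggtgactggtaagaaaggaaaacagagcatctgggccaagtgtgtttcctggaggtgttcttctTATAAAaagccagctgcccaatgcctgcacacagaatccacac

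A promoter was found for 46 of the 53 members, and these were searched on both strands for these letters and for AACCGGTT, the form bound by Grainyhead-like factors. TGANTCA was in 6 of 7 promoters of the precursor and fused type and in 9 of 12 Sprr promoters. It was in 0 of 16 Lce promoters and 1 of 11 S100 promoters, that of S100a11. Of all 32851 promoters in the reference table, 6.75% hold it, with any base at N. The matches of Crnn, Flg2, Tchhl1 and Sprr1b read TGAATCA and that of Rptn reads TGATTCA. Among the precursor and fused type, only the matches of Lor and Ivl have C or G at N. Sprr1a has 2 matches, at positions -146 to -140 and -116 to -110 from the start site, and Lor has 1, at -48 to -42. TATAAA was in 20 of 46 member promoters, against 12.4% of all, and AACCGGTT in 0 of 46, against 0.116% of all. These are matches of letters and not measured binding. Near-identical paralogs also share promoter sequence, so members do not count as independent cases.

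The 6 ear and dorsal libraries had between 31.7 and 40.4 M (mega) fragments, as recovered from steps in the deposited values. The tail library has an unknown depth and was rounded to 2 decimals, and 222 of 4885 genes at 10 FPKM or more in the other 6 are listed at 0 in it. No member is among those 222. The tail library also stood apart in Xist (41.5 FPKM, at most 0.122 in the others) and Ddx3y (listed at 0), so it is used for levels only. Levels are given as FPKM, fragments per kilobase of transcript scaled to the mapped total, which allows levels of different genes to be compared. The layer labels matched the keratinocyte and fibroblast markers, least clearly in WT dorsal dermis. In the 3 epidermal libraries 8 basal keratinocyte markers summed to 15148 to 19977 FPKM, and 10 fibroblast markers to 29.3 to 46.8 FPKM. In dermis the fibroblast sum was 6283 to 11416 FPKM. Keratinocyte RNA was present in dermis too, with a basal marker sum of 143 FPKM in tail, 780 in WT ear, 1937 in Koa ear and 6364 in WT dorsal. In WT dorsal dermis the basal sum was thus about as high as the fibroblast sum of 6283 FPKM, and 7 suprabasal markers summed to 3359 FPKM. Skin T cell and Langerhans cell markers were higher in dermis than in epidermis in 6 of 7 in WT ear, Koa ear and WT dorsal skin. The Langerhans marker Cd207 was at 8.55 FPKM in WT ear dermis and 0.224 in WT ear epidermis, and Epcam was lower in dermis.

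The complex was dominated by S100 genes in every library, and most Lce and Sprr genes were close to 0. In the 6 libraries, 32 of the 53 members reached 1 FPKM in at least 1 library, 17 reached 10 FPKM and 8 reached 100 FPKM. Those 8 were S100a4, S100a6, S100a10, S100a11, S100a14, S100a16, Sprr1a and Sprr4. By family, 6 of 8 precursor and fused-type genes, 3 of 14 Sprr, 9 of 17 Lce and 14 of 14 S100 genes reached 1 FPKM. Lce3b, Lce3f and Sprr3, the last known best from oral and oesophageal epithelium, were listed at 0 in all 7 libraries.

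Within epidermis the S100 family summed to 2929 FPKM in WT ear, 2770 in Koa ear and 5354 in WT dorsal. The Sprr family summed to 168, 195 and 590 FPKM in the same order. The precursor and fused-type genes summed to 54.3, 56.5 and 82.5 FPKM, and the Lce family to 8.86, 8.44 and 28.8 FPKM. The 2 ear libraries were close in all 4 sums, and the dorsal library was above both in all 4. Sprr1a and Sprr4 made up nearly all of the Sprr sums, whereas the 9 Sprr2 genes with recovered fragments together held 9 fragments in WT ear, 15 in Koa ear and 32 in WT dorsal epidermis. Sprr4 needs care, since its annotated transcript is only 231 nt long and its FPKM rests on 131 to 335 fragments in epidermis.

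**Figure D1:**
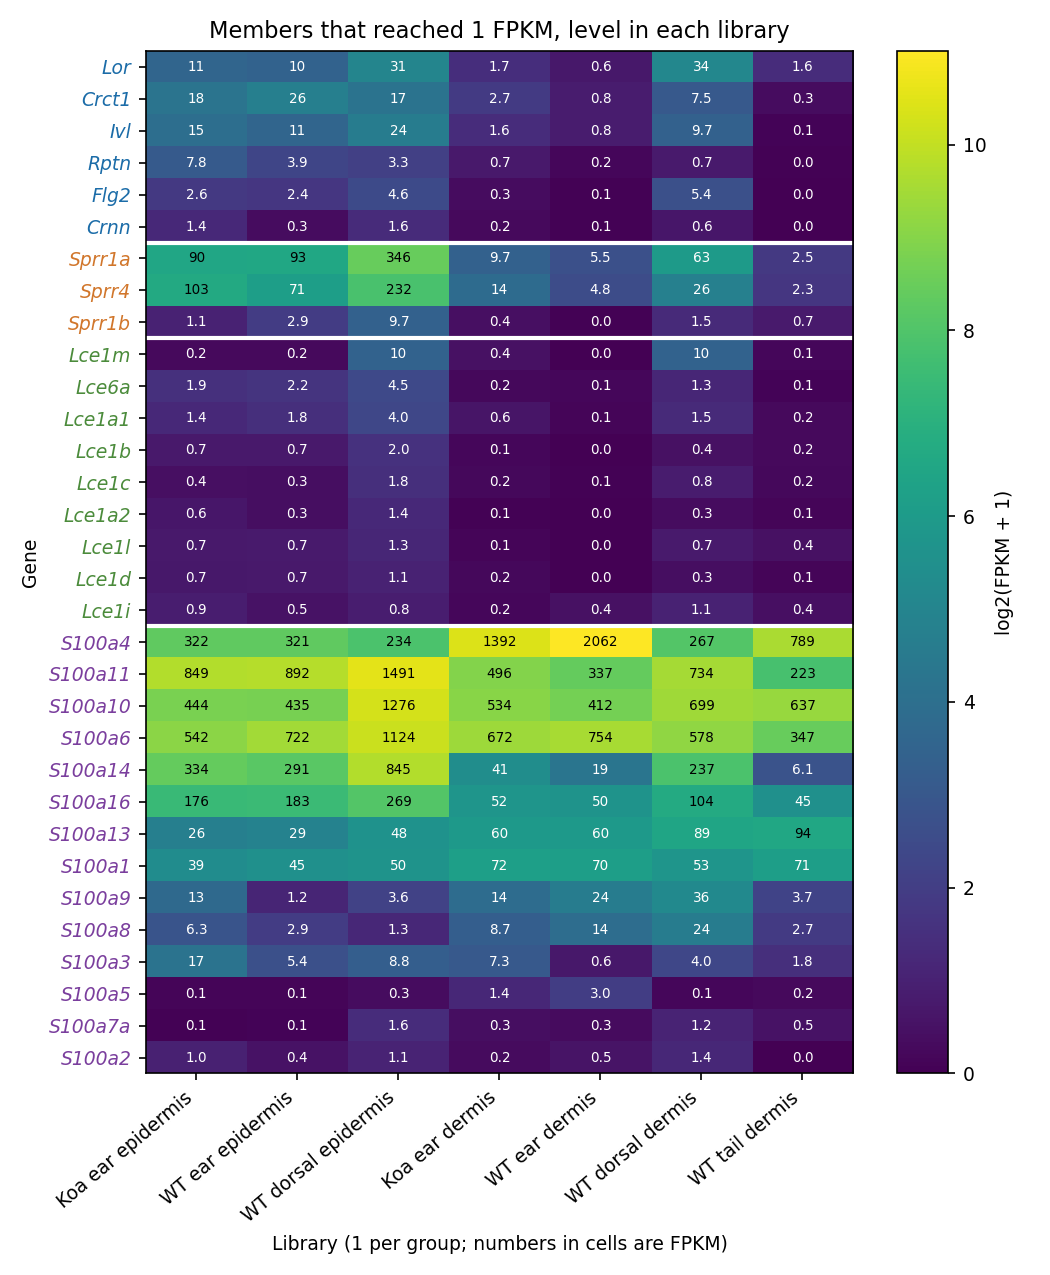
Level of the 32 members that reached 1 FPKM in the ear and dorsal libraries. Rows are genes, with label colours and white lines separating the 4 families, columns are the 7 libraries, colour is log2(FPKM + 1) and the numbers are FPKM. S100a4 is at 2062 FPKM in WT ear dermis and 321 in WT ear epidermis, and Lor is at 0.628 FPKM in WT ear dermis and 33.7 in WT dorsal dermis.

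Dorsal and ear epidermis of WT mice were compared first. Differences are of log2(FPKM + 1), members with at least 1 FPKM in either library were kept, and a gene was counted as higher or lower from a difference of 1. Of 30 members kept, 12 were higher in dorsal epidermis and 0 lower. Of all 12500 genes kept, 11.5% were higher and 5.47% lower. The median difference was 0.82 over the members and -0.02 over all genes, and 26 of the 30 members were above 0. The 12 were 3 of 6 precursor and fused-type genes, 3 of 3 Sprr, 2 of 8 Lce and 4 of 13 S100 genes.

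Loricrin, the main protein of the envelope, stood at 10.9 FPKM in Koa ear, 10.1 in WT ear and 31.3 in WT dorsal epidermis. The WT dorsal library held 1563 Lor fragments and the WT ear library 645, a ratio of 3.09 at equal depth with an exact 95% counting interval of 2.82 to 3.39. Such intervals cover counting error only, not variation between mice or library preparations. Involucrin, the early scaffold, stood at 14.8, 11.2 and 23.9 FPKM in the same order, and dorsal to WT ear gave a ratio of 2.13 (1.94 to 2.33). Cornulin (Crnn), a fused-type protein, had 71 fragments in Koa ear, 16 in WT ear and 71 in WT dorsal epidermis, so that both other libraries were above WT ear. Hornerin had 38, 7 and 178 fragments and stayed under 1 FPKM in all.

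Other genes of the same type stayed under the size rule. Flg2 was at 2.56, 2.39 and 4.56 FPKM, a difference of 0.71 between dorsal and WT ear. Repetin was at 7.77 FPKM in Koa ear, 3.95 in WT ear and 3.29 in WT dorsal epidermis. Crct1, a small cysteine-rich protein whose gene lies between the Lce3 genes and Lce1m, was at 18.0, 26.3 and 17.3 FPKM, highest in WT ear. Its dorsal to ear ratio was 0.657 (0.566 to 0.76).

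The small proline-rich proteins act as cross-bridges between other envelope proteins, and Sprr1 genes are known to be induced by injury and stress. Sprr1a stood at 90.3 FPKM in Koa ear, 93.3 in WT ear and 346 in WT dorsal epidermis, a dorsal to WT ear ratio of 3.71 (3.53 to 3.89). Sprr1b stood at 1.05, 2.85 and 9.74 FPKM, and Sprr4 at 103, 71.1 and 232 FPKM. All 3 were highest in the dorsal library. The low Sprr2 genes went the same way in sum, with a ratio of 4.54 (2.12 to 10.8) from 32 and 9 fragments over the 9 genes with recovered fragments.

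Lce1m showed the widest difference of the 30 members kept between dorsal and WT ear epidermis. It stood at 0.21 FPKM in Koa ear epidermis, 0.221 in WT ear epidermis and 10.2 in WT dorsal epidermis, from 5, 6 and 217 fragments. The dorsal to WT ear ratio was 46.1 (20.9 to 127). The other 11 Lce1 genes together had 109, 132 and 211 fragments, a ratio of 2.04 (1.63 to 2.55), so the interval of Lce1m lay wholly above theirs. Lce1c, with 29 and 7 fragments, also passed the size rule, and Lce1h went the other way with 1 and 13 fragments (ratio 0.098, 0.0023 to 0.653). Lce6a, a separate branch of the family, stood at 1.92, 2.15 and 4.46 FPKM.

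Among S100 genes, S100a10, a partner of annexin A2, stood at 444 FPKM in Koa ear, 435 in WT ear and 1276 in WT dorsal epidermis. S100a14, an epithelial member, stood at 334, 291 and 845 FPKM. Both were about as high in Koa ear as in WT ear and highest in the dorsal library. S100a11, itself a transglutaminase substrate in the envelope, stood at 849, 892 and 1491 FPKM, and S100a6 at 542, 722 and 1124 FPKM, both under the size rule. S100a7a, the mouse relative of psoriasin, had 28 fragments in dorsal and 2 in WT ear epidermis (ratio 17.9, 4.5 to 155). S100a9 had 16 and 7 fragments (2.92, 1.13 to 8.38). S100a4, better known from fibroblasts, was at 322, 321 and 234 FPKM, and S100a8 at 6.30, 2.90 and 1.34 FPKM, both lowest in the dorsal library.

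**Figure D2:**
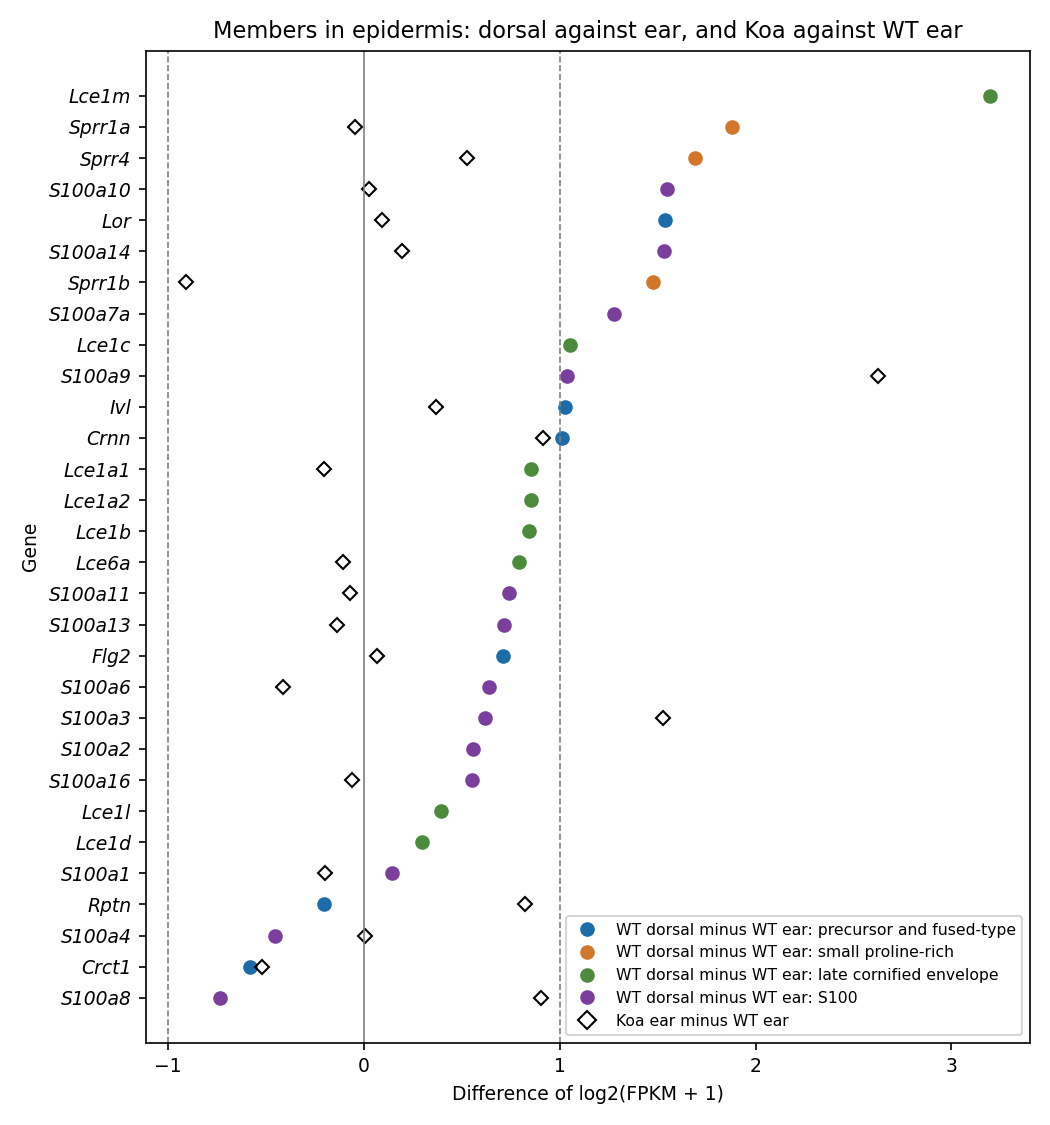
Differences of log2(FPKM + 1) in epidermis for the 30 members kept between WT dorsal and WT ear. Filled points are WT dorsal minus WT ear, coloured by family, open diamonds are Koa ear minus WT ear where that pair also reached 1 FPKM, and dashed lines mark a difference of 1. Lce1m is furthest right at 3.20, Crct1 is below 0 in both comparisons, and S100a9 has the widest Koa difference at 2.63. Both comparisons share the WT ear library.

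Other genes of the barrier programme differed between the same libraries. Of 7 suprabasal keratinocyte markers, 4 were higher in dorsal epidermis and 1 lower, with a median difference of 1.69. Krt1 was at 386 FPKM in WT ear and 1248 in WT dorsal epidermis and Krt77 at 10.7 and 1034 FPKM, while Krt2 was at 3174 and 9.40 FPKM. Genes of filaggrin processing and natural moisturizing factor were higher in 7 of 11 kept and lower in 0, among them Klk5, a protease that sheds the outermost cells, at 3.71 and 16.0 FPKM. In the cross-linking and scaffold list 4 of 10 were higher and 1 lower: Stfa3 stood at 25.9 and 88.7 FPKM, and transglutaminase 3 (Tgm3) at 35.1 and 3.76 FPKM. Of 13 barrier lipid genes, 4 were higher and 0 lower. Of 19 differentiation transcription factors, 8 were higher and 0 lower, with Grhl3, a Grainyhead-like factor, at 5.89 and 28.6 FPKM and Zfp750 at 15.9 and 77.6 FPKM. Of the neighbours in the complex outside the 53 members, 2310050C09Rik stood at 6.74 FPKM in WT ear and 18.2 in WT dorsal epidermis, and Pglyrp4, a peptidoglycan recognition protein, at 0.71 and 16.0 FPKM.

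Signs of cell stress and of cell composition moved with these differences. All 15 early response and stress genes, a list added after the data were seen, were higher in dorsal than in WT ear epidermis, summing to 11851 and 1069 FPKM. Fos was at 1905 and 141 FPKM and Jun at 1201 and 141 FPKM. Of 9 barrier stress and defence genes, 6 were higher and 2 lower, and Krt16 was at 4.79 and 136 FPKM. Sebaceous gland markers were lower in 7 of 8, summing to 181 FPKM in dorsal and 1203 FPKM in WT ear epidermis. Skin T cell and Langerhans markers were higher in 4 of 4 kept, and 8 of 12 hair markers were higher. Basal markers were higher in 1 of 8, with a median of -0.21. The part of cell stress and of cell composition in the member differences was not tested. In such bulk samples, more cells of a type and more RNA per cell cannot be told apart.

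The call of 12 higher members rests on the scale used. Centring on the 8 basal markers, whose median difference was -0.21, moved every member up, so the 12 stayed higher. Relative to the median of the 7 suprabasal markers, 1 member was higher, Lce1m, and 11 were lower, with a median of -0.87. The added 1 shrinks the differences of members near or under 1 FPKM. For them this centring does not tell whether they rose less than the suprabasal markers. With a pseudocount of 5 in place of 1, 6 members were higher.

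Between Koa and WT ear epidermis few members differed. Of 22 kept, 2 were higher in Koa, S100a9 and S100a3, and 0 were lower, against 2.15% higher and 0.854% lower among all 12062 genes kept. The median difference was 0.02 over the members and -0.01 over all genes, and 12 of the 22 were above 0. Lor, Flg2 and Sprr1a were nearly level, with Koa to WT ratios of 1.07 (0.961 to 1.20), 1.07 (0.961 to 1.19) and 0.967 (0.909 to 1.03). Other envelope genes had counting intervals away from 1 and stayed under the size rule. Sprr1b gave 0.369 (0.22 to 0.598), Crct1 0.685 (0.596 to 0.787), Ivl 1.32 (1.19 to 1.45) and Sprr4 1.44 (1.14 to 1.83). The 11 Lce1 genes other than Lce1m gave 0.942 (0.724 to 1.22).

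S100a9, one subunit of calprotectin, a defence protein of neutrophils and stressed keratinocytes, was at 12.7 FPKM in Koa ear, 1.22 in WT ear and 3.56 in WT dorsal epidermis, from 64, 7 and 16 fragments. The Koa to WT ear ratio was 10.4 (4.78 to 27.0). Its partner S100a8 was at 6.30, 2.90 and 1.34 FPKM, a Koa to WT ratio of 2.18 (1.27 to 3.83) under the size rule. Both were highest in Koa ear, and they differed in which library was lowest. In Koa and WT ear epidermis the neutrophil granule genes Ngp, Ltf, Elane and Mpo stood at 0 to 0.118 FPKM, and Camp, another, at 0.143 and 1.003 FPKM. The 13 neutrophil markers summed to 12.8 and 11.9 FPKM, with 3 and 5 of them at 0 and 0 of the 3 kept past the size rule. The part of neutrophils in the S100a8 and S100a9 levels of epidermis was not tested. Of 7 barrier stress and defence genes kept, 2 were higher in Koa and 1 lower. Those higher were the keratins Krt6a (55.0 and 16.9 FPKM) and Krt16 (22.1 and 4.79 FPKM), which are also hair follicle and stress keratins. The one lower was Slpi, a protease inhibitor (4.03 and 18.4 FPKM).

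S100a3 is known as a cysteine-rich protein of the hair cuticle. It was at 17.3 FPKM in Koa ear, 5.36 in WT ear and 8.76 in WT dorsal epidermis, and the Koa to WT ear ratio was 3.23 (2.59 to 4.06). In dermis it was at 7.30 FPKM in Koa ear, 0.649 in WT ear and 4.01 in WT dorsal. WT ear was the lowest of the 3 in both layers. Several fused-type members were also higher in Koa ear than in WT ear epidermis without passing the rule. Repetin, which is also made in the hair follicle, gave a ratio of 1.97 (1.78 to 2.17). Tchhl1, a relative of the hair protein trichohyalin, had 65 fragments in Koa ear, 1 in WT ear and 4 in WT dorsal epidermis (Koa to WT ratio 74.1, 12.8 to 2972), though it stayed at 0.985 FPKM in Koa, below the filter. Cornulin gave 5.06 (2.91 to 9.33) and hornerin 6.19 (2.73 to 16.4), both from few fragments in WT ear.

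Markers of the growing hair follicle moved with them. Of 15 kept, 13 were higher in Koa and 0 lower, with a median difference of 2.18. Trichohyalin (Tchh), whose gene lies in the same complex, was at 25.2 and 4.46 FPKM in Koa and WT ear epidermis. Padi3, the enzyme that modifies trichohyalin, was at 2.79 and 0.0778 FPKM, and Krt71, a keratin of the inner root sheath, at 31.9 and 0.93 FPKM. The part of the hair follicle in the S100a3, Rptn and Tchhl1 differences was not tested. Of the other barrier lists, basal and suprabasal markers had 0 of 8 and 1 of 7 higher. The cross-linking list had 1 of 9 higher (Evpl) and 2 lower (Cnfn and Stfa3), and barrier lipid genes and differentiation transcription factors had 0 of 12 and 0 of 19 either way. With a pseudocount of 0.1, 4 members were higher and 1 lower.

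Koa ear epidermis was also set against WT dorsal epidermis, which shares a library with each comparison above. Of 30 members kept, 3 were higher in Koa ear (Rptn, S100a8 and S100a9) and 11 lower, against 3.52% and 8.75% of 12489 genes. The 11 were Lor, Sprr1a, Sprr1b, Sprr4, Lce1m, Lce1a1, Lce1c, S100a6, S100a7a, S100a10 and S100a14. Lce1m was 48.6 times and Sprr1b 9.24 times as high in the dorsal library. Relative to the 8 basal markers, whose median difference was 0.46, 19 members were lower. The 7 suprabasal markers had a median of -1.02. Centring on them, which was not done for this pair, would move members the other way. Other lists moved between these libraries as well. The early response list was lower in Koa ear in 15 of 15, sebaceous gland markers were higher in 7 of 8, and skin T cell and Langerhans markers were lower in 3 of 4 kept. Hair follicle markers were higher in 10 of 15 and lower in 1, and suprabasal markers were higher in 1 of 7 and lower in 4. Their part in the member differences was not tested.

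Across the layers, most envelope genes were lower in dermis than in epidermis of both ears, and several S100 genes were higher in WT ear dermis. Between dermis and epidermis of WT ear, 14 of 22 members kept were lower in dermis and 5 higher, against 14.4% and 21.3% of 13840 genes. The 14 included 10 of 10 precursor, Sprr and Lce genes. The 5 were S100a4, S100a5, S100a8, S100a9 and S100a13. In WT dorsal skin 12 of 31 members were lower in dermis and 2 higher (8.27% and 16.1% of 13896 genes), and in Koa ear 11 of 23 were lower and 3 higher (12.7% and 20.4% of 13954 genes). Those lower in WT dorsal skin included 3 of 6 precursor and fused-type, 3 of 3 Sprr and 3 of 9 Lce genes. In Koa ear they included 5 of 6, 2 of 3 and 1 of 2. S100 genes higher in dermis were 41.7% of those kept in WT ear, 15.4% in WT dorsal skin and 25% in Koa ear. The shares in WT dorsal skin and Koa ear were near those of all genes. The median difference of all genes was -0.09 in WT ear, -0.14 in WT dorsal skin and -0.11 in Koa ear.

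S100a4 was the member with the highest level of all. It stood at 2062 FPKM in WT ear dermis, 1392 in Koa ear dermis, 789 in tail dermis and 267 in WT dorsal dermis, and at 321, 322 and 234 FPKM in WT ear, Koa ear and WT dorsal epidermis. Ear dermis was therefore high in both genotypes, and dorsal dermis lay close to its epidermis. Annotated exons of S100a4 share 51.7% of their bases with the gene Gm42674 on the same strand, which has no row of its own. Its neighbour S100a5 had 25 fragments in WT ear dermis, 11 in Koa ear dermis, and 1 or 2 in each other ear or dorsal library. Markers of cartilage, which the ear holds, summed to 1005, 1191 and 42.6 FPKM in WT ear, Koa ear and WT dorsal dermis. In the same order, fibroblast markers summed to 11416, 10180.5 and 6283 FPKM, and macrophage and monocyte markers to 1131, 840 and 795. Mast cell markers summed to 420, 154 and 85.2 FPKM. Skin T cell and Langerhans cell markers, at 1302, 1834 and 1098 FPKM, were highest in Koa ear, as cartilage markers were. The part of these cells in the S100a4 and S100a5 levels was not tested. S100a13 and S100a1 were above their epidermal level in all 3 origins, at 59.9 to 89.0 and 52.8 to 72.5 FPKM in dermis.

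S100a8 and S100a9 were at 8.67 and 13.7 FPKM in Koa ear dermis, 14.3 and 23.8 in WT ear dermis and 23.8 and 35.9 in WT dorsal dermis. Both therefore had the same order across the 3 dermal libraries, which differs from their order in epidermis. The neutrophil markers summed to 17.4, 21.6 and 72.4 FPKM in the same order. Retnlg, a neutrophil product, was at 0.765, 2.38 and 19.7 FPKM, and Ngp at 0.0881, 0 and 0.871 FPKM. Other neutrophil markers were not highest in WT dorsal dermis. Stfa2l1 was at 0.803, 1.44 and 0.441 FPKM, Mmp8 at 0.775, 0.501 and 0.481 FPKM and Camp at 0.498, 0.209 and 0.391 FPKM. Of 6 neutrophil markers kept between WT dorsal and WT ear dermis, 3 were higher in dorsal and 0 lower. The part of neutrophils in these levels was not tested.

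The keratinocyte members were read against 15 keratinocyte markers, 8 basal and 7 suprabasal, by giving each dermal level as a percent of the epidermal level. In WT ear the 10 members other than S100 genes stood at 1.56% to 6.92%, and the markers at 2.72% to 31.4%. In Koa ear 11 members stood at 9.09% to 39.8% and the markers at 9.81% to 43.9%. In both ears 0 members other than S100 genes were above the highest marker. In WT dorsal skin the markers stood at 20.5% to 75.8%, and the 17 members spread further, from 11.4% to 118%. The highest marker was the basal gene Dst in all 3 origins. Without Dst, a choice made after seeing the data, the highest marker stood at 14.1% in WT ear, 13.9% in Koa ear and 53.0% in WT dorsal skin. In WT ear 0 members were above it. In Koa ear 5 of 11 were above it: Lce1a1 (39.8%), Sprr1b (34.6%), Crnn and Lor (both 15.4%) and Crct1 (14.9%). Lce1a1 rested on 10 dermal and 25 epidermal fragments, Sprr1b on 8 and 23, and Crnn on 11 and 71, so counting error is wide. Lor had 94 and 608 fragments and Crct1 had 49 and 328. Lce1m in Koa ear, with 10 dermal and 5 epidermal fragments, was under the filter.

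In WT dorsal skin 3 of the 17 members with at least 1 FPKM in epidermis lay above every one of the 15 markers. Lor was at 33.7 FPKM in dermis and 31.3 in epidermis, which is 107%. Flg2 was at 5.39 and 4.56 FPKM (118%), and Lce1m at 10.05 and 10.18 FPKM (98.7%). Their counting intervals, as dermis to epidermis ratios, were 1.00 to 1.15, 1.09 to 1.28 and 0.815 to 1.20. Hornerin, too low for the filter, had 193 and 178 fragments, and Kprp, a keratinocyte proline-rich gene of the complex, was at 2.16 and 2.01 FPKM. Lce1i, at 1.05 FPKM in dermis and 0.839 in epidermis, was also left out by that filter. Its 18 and 14 fragments gave a ratio of 1.26 (0.591 to 2.73). Lor, Flg2 and Hrnr are known from the granular layer, the last living layer of the epidermis. Rptn and Crnn, which are fused-type members as Flg2 and Hrnr are, stood lower, at 22.1% and 37.2%. The part of the granular layer in these levels was not tested.

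The 3 Sprr genes lay at the other end, below the lowest of the 15 markers. Sprr4 stood at 11.4%, Sprr1b at 14.9% and Sprr1a at 18.2% of the epidermal level. Sprr1a was at 62.9 FPKM in dorsal dermis, against 346 in dorsal epidermis. Ivl stood at 40.5%, Crct1 at 43.2% and the 7 other Lce genes that passed the filter at 21.0% to 56.6%, inside the range of the markers with Dst. Without Dst, Lce1l at 56.6% was a further member above all markers, making 4. Markers of the hair follicle stood at 33.03% to 80.77%.

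**Figure D3:**
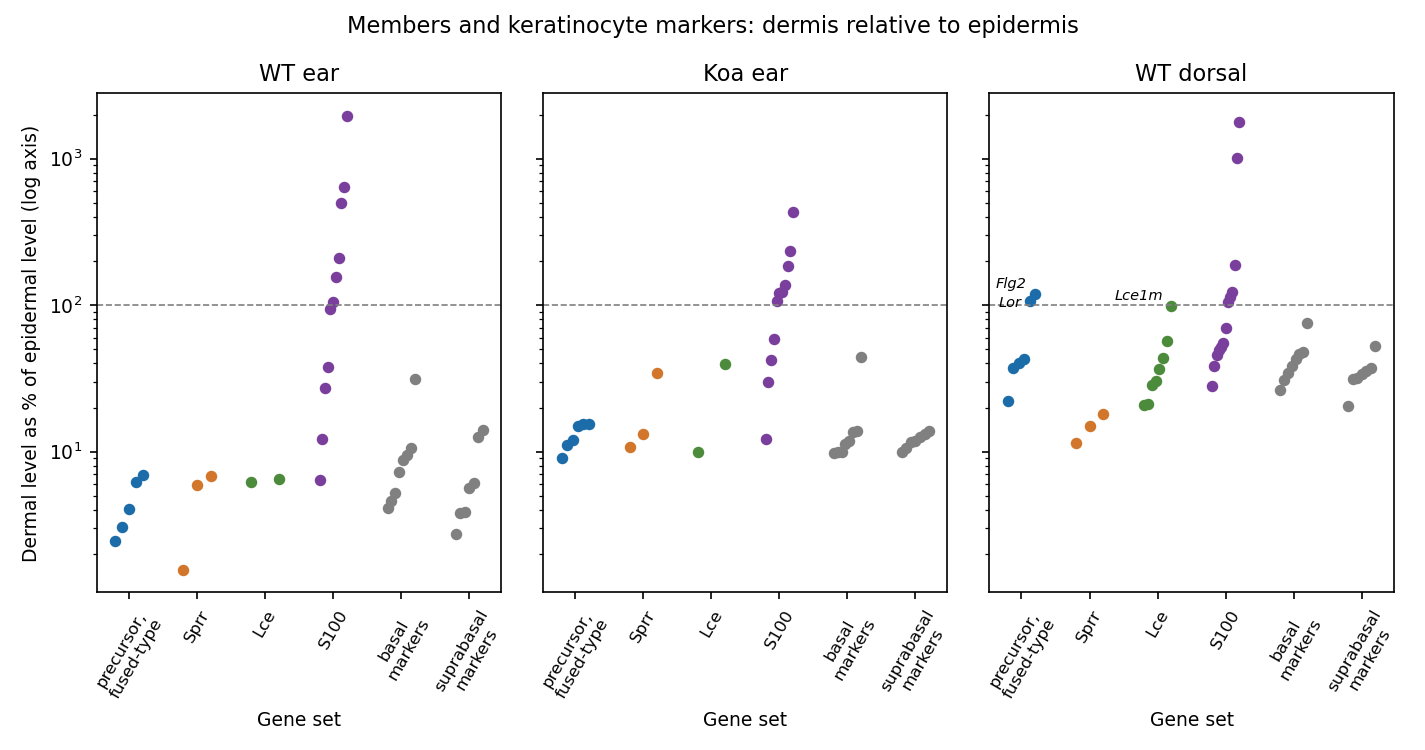
Dermal level as a percent of epidermal level (log axis), for each member with at least 1 FPKM in the epidermis of that origin and for 15 keratinocyte markers in grey, in 3 panels by origin. Each point is 1 gene, and the dashed line marks equal levels. In WT dorsal skin Lor, Flg2 and Lce1m lie at 107%, 118% and 98.7%, above all grey points, and the 3 Sprr genes lie below them.

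Between dorsal and ear dermis of WT mice, 13 of 25 members kept were higher in dorsal dermis and 2 lower, S100a4 and S100a5, against 11.7% and 7.05% of 14234 genes. The median difference was 1.05 over the members and -0.05 over all genes. Lor, at 0.628 FPKM in WT ear, 1.68 in Koa ear and 33.7 in WT dorsal dermis, gave a dorsal to WT ear ratio of 53.6 (38.6 to 76.8). Flg2 gave 91.7 (56.3 to 161), Ivl 12.5 (9.26 to 17.1) and Sprr1a 11.4 (9.41 to 13.9). Lce1m had 219 fragments in dorsal dermis, 10 in Koa ear dermis and 0 in WT ear dermis. Taking a floor of 3 fragments for the library at 0 gave a dorsal to WT ear ratio of 82.077. The exact 95% lower limit from the counts themselves was 66.189. S100a14 was at 18.6, 40.7 and 237 FPKM in WT ear, Koa ear and WT dorsal dermis.

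Keratinocyte markers moved with these members. Basal markers were higher in 7 of 8 in dorsal dermis, with a median of 2.35, and suprabasal markers in 6 of 7, with a median of 3.75. The early response list was higher in 15 of 15. On the log2(FPKM + 1) scale and relative to the 8 basal markers, 3 members were higher (Lor, S100a14 and Lce1m) and 16 were lower. The added 1 shrinks the differences of members near or under 1 FPKM more than those of these markers. By fragments, Sprr1b gave a dorsal to WT ear ratio of 32.6 (5.41 to 1332) and Lce1a1 one of 13.5 (3.35 to 118). For such members the centred value does not tell whether they rose less than the markers. The share of keratinocyte RNA in these dermal libraries and the level of the members per keratinocyte cannot be told apart.

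The last pair was Koa and WT ear dermis. Of 17 members kept, 4 were higher in Koa (Crct1, S100a14, S100a3 and Sprr4) and 0 lower, against 1.71% and 1.07% of 13690 genes, with medians of 0.38 and 0.00. Crct1 was at 2.68 and 0.803 FPKM in Koa and WT ear dermis, a ratio of 3.34 (1.84 to 6.42), and Sprr4 rested on 22 and 8 fragments. Basal markers were higher in 4 of 8 and suprabasal markers in 5 of 7. Hair follicle markers were higher in 10 of 11 kept, with a median of 2.204, and mast cell markers were lower in 4 of 6. The part of these cells in the member differences was not tested. Relative to the 8 basal markers, 1 member, S100a3, was higher and 6 were lower.

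The order of genes along the chromosome was used to see whether members with like differences lay together. The S100 genes sit at both ends, with 12 from S100a1 to S100a9 and S100a11 and S100a10 at the far end, and the envelope families lie between them. In epidermis, dorsal against WT ear, Sprr1b, Sprr1a, Sprr4 and Ivl lie near each other and were all higher, although Sprr3, between Sprr1b and Sprr1a, was at 0. Lce1m and Crct1 are neighbours, 2.12 kb apart, and stood at 3.20 and -0.58, the latter under the size rule. S100a4 and S100a6, separated by S100a5, stood at -0.45 and 0.64, both under the size rule.

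**Figure D4:**
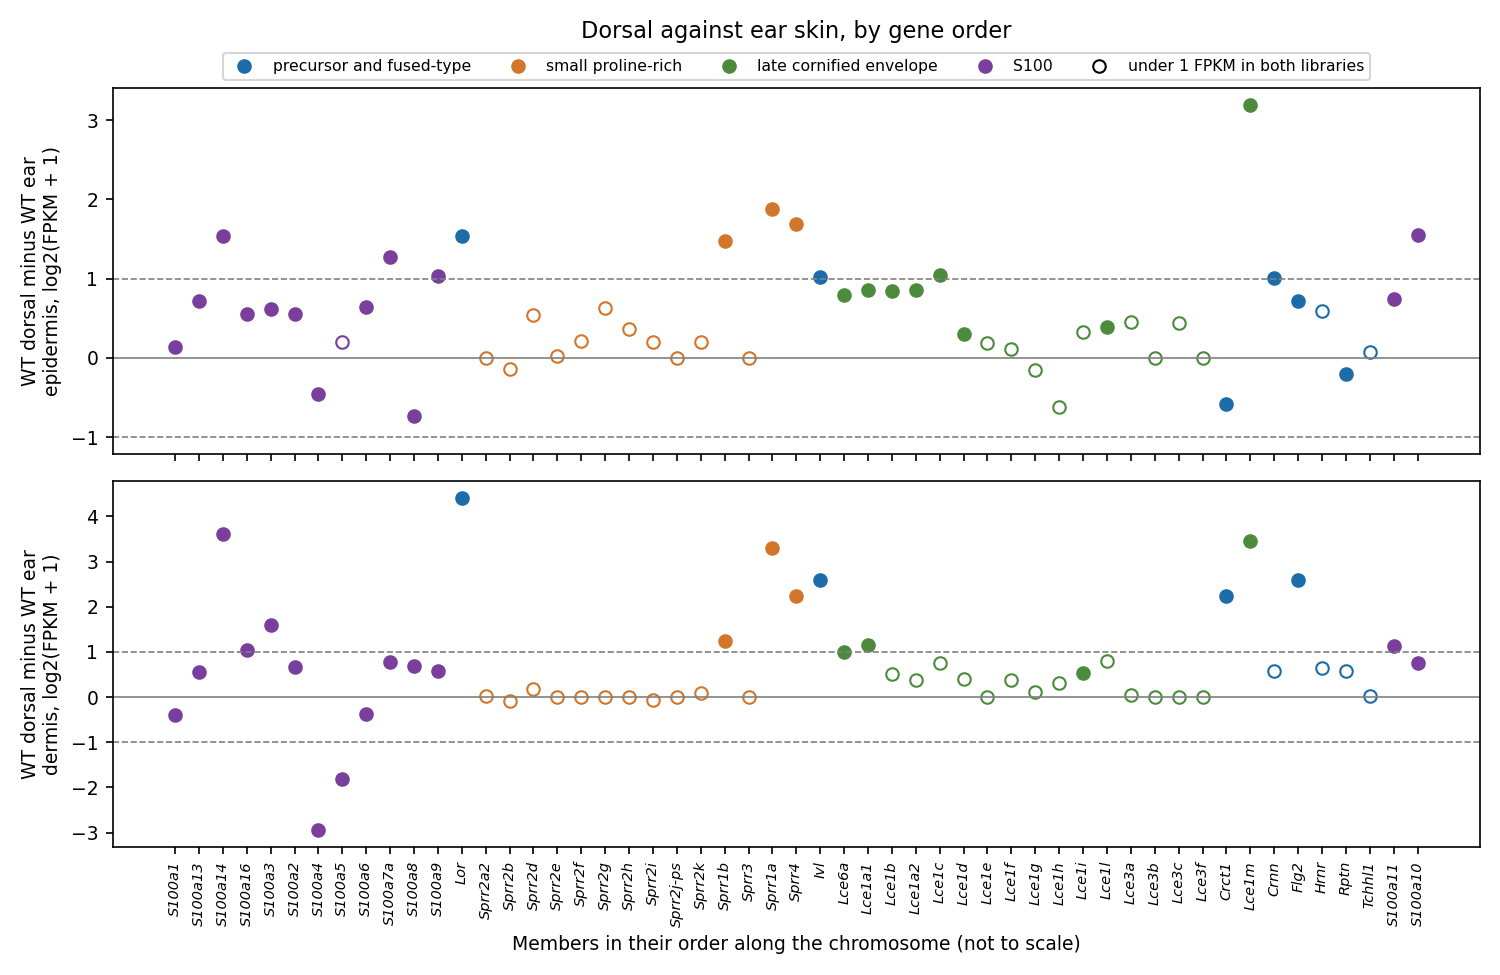
Difference of log2(FPKM + 1) between WT dorsal and WT ear for all 53 members in their order along the chromosome, in epidermis (top) and dermis (bottom). Colours are families, open points were under 1 FPKM in both libraries, and dashed lines mark a difference of 1. Lce1m stands at 3.20 in epidermis beside Crct1 at -0.58, and in dermis S100a4 is the lowest at -2.94 and Lor the highest at 4.41.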

How the data were processed

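RNA of 7 libraries of sorted mouse skin cells was analysed from 1 table of FPKM values, which the authors deposited. The aligner TopHat2 (2.0.13) and the estimator Cufflinks (2.2.1) are named in the submitters' processing notes, as are GRCm38 and mm9. What each build was used for, and which annotation, is not given in the sources used here. Cufflinks assigns fragments that fit several transcripts by estimate, which affects near-identical paralogs, and FPKM of transcripts near the fragment length is unstable.

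Differences were taken as log2(FPKM + 1). In each of 8 comparisons of 2 libraries, genes at 1 FPKM or more in either were kept, and a difference of at least 1 was counted. Col1a1, Col1a2 and Col3a1 were left out as failed estimates. There were no replicates, so no test was run, and counts and medians of members stand beside those of all genes kept.

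Whole fragments were recovered from steps in low FPKM values, which gives depths of 31.7 to 40.4 M (mega) fragments. Of 907 genes with a single transcript, 99.6% shared one fraction of a base in their effective length. For 40 members the counts were whole in at least 3 libraries (in both, where only 2 were above 0 and the lower held at most 5), within 0.03 of a fragment or 5e-05 of the count, and ratios of these carry exact Clopper-Pearson 95% intervals, which cover counting error only. The remaining 13 members have no such interval. The shared fraction was not required where the effective length was short. This held for S100a8 (188 bases), S100a9 (142), S100a2 (113), Lce3a (172) and Sprr4 (45.6), so their counts and intervals are less certain. The difference rule and the step search were tested on simulated data. Proteins were translated from GENCODE M21 reading frames, since no protein table was used, and positions and promoters come from RefSeq GRCm38.p6. Software was Python 3.11.15, pandas 2.3.3, numpy 2.4.6, scipy 1.17.1, biopython 1.88 and matplotlib 3.10.9.

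The members, the 21 gene lists and the settings were chosen with earlier results of these data known. Named members were those at 100 FPKM or more in a library other than tail, plus up to 4 per family, comparison and direction with the widest differences among those at 5 FPKM or more. Named after their values were seen were Crnn, Hrnr, Tchhl1, S100a5, S100a7a, the low Lce and Sprr2 genes and, outside the members, Kprp, Padi3, Klk5, Krt16 and the neutrophil genes. Of the other lists, up to 3 genes with the widest differences at 5 FPKM or more were to be named. Also chosen after seeing the data were the early response list, 4 centrings on keratinocyte markers, leaving Dst out of the markers, the length criterion in the recovery of fragments, the 4 printed promoters, the minimum of 0.5 for opposite directions and the minimum of 0.25 for a moved median. Alternatives were pseudocounts of 0.1 and 5, no filter on low values, centring on all genes or on keratinocyte markers, and leaving out near-identical paralogs. Some results on genes outside the members are not reported here.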

Additional observations from a re-analysis of the deposited data

Results flagged for a closer look

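Crct1 differed in opposite directions in the 2 layers of the same comparisons. Between Koa and WT ear its difference of log2(FPKM + 1) was -0.52 in epidermis and 1.03 in dermis. Between WT dorsal and WT ear it was -0.58 in epidermis and 2.23 in dermis. These 2 comparisons share the WT ear libraries, whose epidermal level of Crct1 was the highest (26.3 FPKM) and whose dermal level was the lowest of the ear and dorsal libraries (0.803 FPKM). Basal keratinocyte markers summed to 780 FPKM in that dermal library, 1937 in Koa ear dermis and 6364 in WT dorsal dermis, and their part was not tested.

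S100a9 was higher in Koa than in WT ear epidermis, by 2.63, and lower in Koa than in WT ear dermis, by -0.76. It rested on 64 and 7 fragments in epidermis and on 69 and 123 in dermis. The difference between layers was not tested for either gene, since each group had 1 library.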

How the results depend on the processing

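No paired analysis was possible because each group had 1 library, so that each comparison held 2 libraries. A comparison of layers paired over the 3 origins was not made. Of 94 counts of members recomputed under the alternatives, 74 stayed within 1.5 times and 20 moved. Of 1152 recomputed differences of single members, 61 changed sign, 59 of them after centring on keratinocyte markers and 2 after centring on all genes. Of these, 29 were under the size rule before and after, and 32, all after centring on keratinocyte markers, were past it before or after. Another 50 no longer passed the size rule and 52 newly passed it. Of 47 medians, 5 changed direction.

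With a pseudocount of 0.1, 4 members were higher and 1 lower in Koa than in WT ear epidermis, 1 was lower in WT dorsal than in WT ear epidermis, and 1 was lower in Koa than in WT ear dermis. With a pseudocount of 5, 6 were higher in WT dorsal than in WT ear epidermis, 1 was higher in Koa ear than in WT dorsal epidermis, 1 was higher in Koa than in WT ear dermis, 1 was lower in WT dorsal than in WT ear dermis, 3 were higher and 8 lower in dermis than in epidermis of WT ear, and 6 were lower in dermis than in epidermis of WT dorsal skin. Without the filter or near-identical paralogs, and centred on all genes, no count moved by over 1.5 times. Without Dst among the markers, 5 members in Koa ear lay above the highest marker for the dermal percent, against 0 with it.

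Centring on keratinocyte markers subtracts 1 value from every gene. The added 1 in log2(FPKM + 1) shrinks the differences of genes near or under 1 FPKM, so centring can turn their sign whatever their ratio. Between WT dorsal and WT ear epidermis, S100a7a and Crnn had fragment ratios of 17.9 (4.5 to 155) and 5.66 (3.26 to 10.4). For such genes a centred value below 0 does not show that they rose less than the markers. Between Koa and WT ear epidermis, 1 member was then lower on either marker set, and the member median was -0.36 on basal and -0.21 on suprabasal markers. Between Koa ear and WT dorsal epidermis, 19 were lower on basal markers, and centring on suprabasal markers was not done for that pair. Between Koa and WT ear dermis, 1 was higher and 6 lower on basal markers, the median was -0.64 and S100a13 was at -1.003. Between WT dorsal and WT ear epidermis the 12 higher members stayed higher on basal markers, whose median difference was -0.21. On suprabasal markers of that pair, 1 was higher and 11 lower and the median was -0.87. There the differences that changed sign and were past the size rule before or after were those of Crnn (-0.68), Ivl (-0.67), Lor (-0.15), Sprr1b (-0.21), Lce1c (-0.64), Lce1d (-1.39), Lce1l (-1.30), S100a1 (-1.55), S100a2 (-1.13), S100a3 (-1.07), S100a6 (-1.05), S100a7a (-0.41), S100a9 (-0.65), S100a10 (-0.14), S100a14 (-0.16) and S100a16 (-1.14). Between WT dorsal and WT ear dermis on basal markers, 3 were higher and 16 lower and the median was -1.31. There those that did so were Crct1 (-0.12), Sprr1b (-1.12), Sprr4 (-0.12), Lce1a1 (-1.20), Lce1i (-1.82), Lce6a (-1.37), S100a2 (-1.68), S100a3 (-0.75), S100a7a (-1.58), S100a8 (-1.66), S100a9 (-1.78), S100a10 (-1.59), S100a11 (-1.23), S100a13 (-1.79) and S100a16 (-1.31). The share of keratinocyte RNA in each library was not measured apart from these markers. Members under about 10 fragments, most Lce and Sprr2 genes among them, have ratios that counting error alone leaves uncertain by several times.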
